A study of Mus musculus with 111 samples.

Results

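The comparison described here asks which genes responded to the R6/2 genotype alike in striatal astrocytes and microglia, which responded in 1 of these cell types, and which moved in opposite directions. It rests on 22 of the 111 arrays of the series, from cells of 12-week-old mice: 6 R6/2 and 5 wild-type (WT) samples of astrocytes, and as many of microglia. R6/2 mice, a model of Huntington's disease, express exon 1 of the human huntingtin gene, with an expanded CAG repeat, from a transgene under the human promoter. Striata of a litter were pooled by genotype, so each sample is a pool of mice, and cells were sorted as GLT1-positive and CD11b-negative (astrocytes) or GLT1-negative and CD11b-positive (microglia). The same replicate numbers, 11 in all, occur in both fractions, and each number was treated as 1 pool from which both cell types were sorted. Values are log2 array signals, on which a difference of 1 is a 2-fold change. The effect in a cell type is the R6/2 mean minus the WT mean. The difference between cell types is the astrocyte effect minus the microglia effect, so it is negative where R6/2 microglia rose more, or fell less, than R6/2 astrocytes. Of 18194 genes named by a probe set, 13431 reached the signal minimum in at least 1 of the fractions and were tested, and 10820 reached it in both.

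Astrocytes supply neurons with cholesterol and energy substrates and clear glutamate and potassium, whereas microglia are the resident macrophages of the brain and survey, engulf and signal. Both cell types can sense type I interferon, which acts through its receptor and a transcription factor complex that holds STAT2 and IRF9 to induce antiviral genes. Microglia around degenerating neurons or plaques can also enter a disease-associated state, marked by Apoe, Axl, Cst7, Clec7a and related genes. Cholesterol synthesis is controlled by the transcription factor SREBP2, which is held back when sterols are plentiful.

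The sorted fractions carried their markers. The mean of 20 astrocyte markers lay between 12.29 and 12.70 in the astrocyte arrays and between 6.89 and 8.57 in the microglia arrays. Within astrocytes it was 12.29 to 12.58 in R6/2 and 12.60 to 12.70 in WT pools, so every R6/2 pool lay below every WT pool. Of these markers, 3 were called lower in R6/2 astrocytes (9.89% of all genes fell there). The mean of 19 microglial markers lay between 12.43 and 12.87 in microglia and between 5.23 and 6.00 in astrocytes. The astrocyte fraction also held oligodendrocyte RNA, with a mean over 13 markers of 11.62 to 12.25 in R6/2 and 12.25 to 12.47 in WT pools. These ranges barely overlapped, so any fit with this mean as a covariate also removes part of the genotype effect in astrocytes. The mean of 15 medium spiny neuron genes was 5.26 to 5.50 in R6/2 microglia and 5.70 to 6.84 in WT microglia, highest in WT pool 20, and 6.30 to 7.02 against 6.71 to 7.05 in astrocytes. WT pools 12 and 20 had little Y-linked signal in both fractions (mean of the Y-linked genes 2.80 to 3.86, against 7.41 to 9.26 in the other 9 pools), so the WT group mixed pools with and without male cells, while every R6/2 pool had male RNA. Other fits left out WT pools 12 and 20, or took a marker mean or the Y-linked signal as covariate. They are given beside only some of the results whose calls they move. Without WT pools 12 and 20 the differences of Lpl, Ccdc162, Pdgfra, Cspg4, Kcnj10, Bhlhe40 and Pros1, among others, were not called. Their adjusted p (limma) ran from 0.0519 to 0.193. With the Y-linked covariate those of Lpl, Akap17b, Pdgfra, Cspg4, Psmb8, Kcnj10, Cdkn1a, Bhlhe40, Hsph1 and Pros1, among others, were not called.

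The R6/2 effect differed between astrocytes and microglia for 1391 genes (10.4% of those tested, limma on the paired differences between fractions, Benjamini-Hochberg adjusted p below 0.05). The astrocyte effect was the higher for 874 of them (6.51%) and the lower for 517 (3.85%). That split was tied to the scale: with each array centred on its own median, 559 were higher and 604 lower. Far more genes were called in astrocytes (2674, 19.9%) than in microglia (321, 2.39%). Only 86 genes (0.64%) were called in both with the same sign, which is 3.22% of the astrocyte calls and 26.8% of the microglia calls. Another 889 genes (6.62%) were astrocyte-specific, in that the effects differed and only the astrocyte effect was called, 125 (0.931%) were microglia-specific by the mirror rule, 16 (0.119%) moved in opposite directions, and 342 (2.55%) differed with neither effect called. For 1683 genes called only in astrocytes and 94 called only in microglia, the effects were not shown to differ. For 1149 genes (8.55%) the astrocyte-minus-microglia difference of the 6 R6/2 pools did not overlap that of the 5 WT pools. Without WT pools 12 and 20 the counts fell to 425 genes that differed, 43 shared, 284 astrocyte-specific, 47 microglia-specific and 3 opposite. Without WT pool 18 alone they were 850 genes that differed, 538 astrocyte-specific, 76 microglia-specific and 4 opposite.

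**Figure D1:**
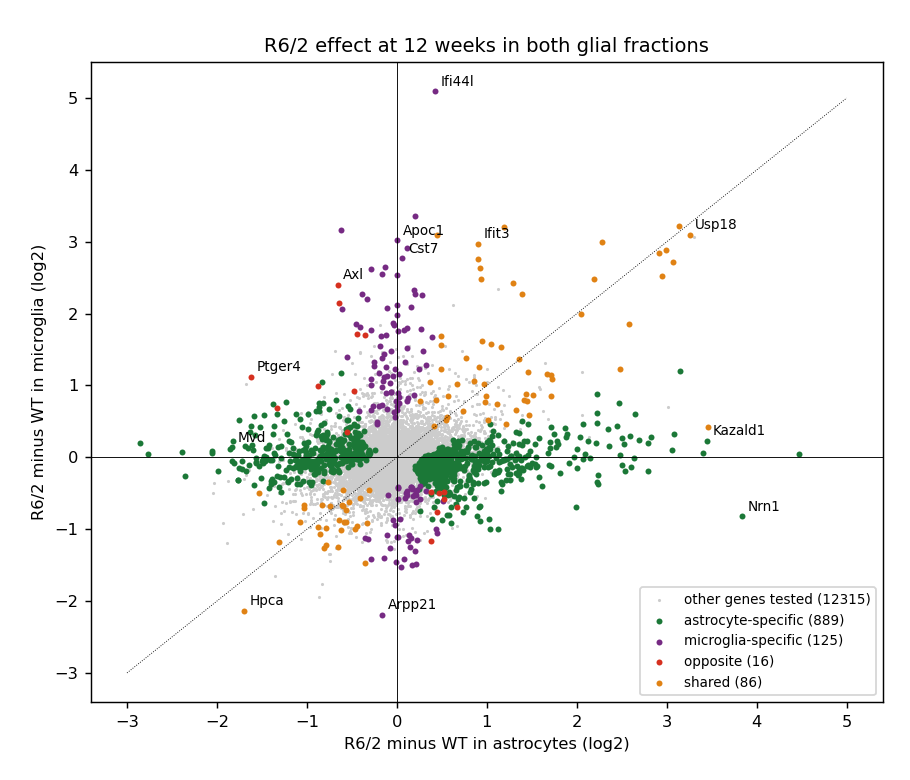
Each point is 1 of 13431 genes, placed by its R6/2 minus WT difference in astrocytes (horizontal axis, log2) and in microglia (vertical axis, log2), and coloured by class. The 86 shared genes lie toward the dotted line of equal effects, the 889 astrocyte-specific genes along the horizontal axis, the 125 microglia-specific genes along the vertical axis, and the 16 opposite genes in the upper left and lower right.

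Interferon-stimulated genes made up the strongest shared response. Of 24 interferon-stimulated effectors tested, 19 rose in R6/2 astrocytes (10% of all genes tested rose there) and 22 in R6/2 microglia (1.38% of all genes), and 18 were shared. Their median effect was 1.17 in astrocytes and 1.98 in microglia, against -0.01 and -0.05 over all genes tested. With the oligodendrocyte marker mean, lower in the R6/2 astrocyte pools, as a covariate, 10 effectors rose in astrocytes and 10 were shared. Since that mean nearly separates the genotypes in astrocytes, this fit also removes part of the genotype effect. For 9 of the 18 no difference in size was called. Members of this kind were Usp18, which removes the ubiquitin-like ISG15 from proteins and restrains interferon receptor signalling, Oasl2, a relative of the antiviral oligoadenylate synthetases, and Ifi27l2a, a small interferon-induced membrane protein.

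The response to interferon is read from the interferon-stimulated response element, so the 250 bases before the start of 4 genes of this group are shown, with the motif in capitals. The motif searched on both strands was GAAA, any 2 bases and GAAA again. They are from RefSeq, build GRCm38.p6, and run 5′ to 3′ on the strand of the gene. Ifit1 (chr19:34640639-34640888, plus strand) and Bst2 (chr8:71537473-71537722, minus strand) rose in both cell types, by 3.07 and 1.46 in astrocytes and 2.71 and 1.19 in microglia, with no difference called (adjusted p = 0.656 and 0.56). Ifit3 (chr19:34583279-34583528, plus strand) and Rsad2 (chr12:26456453-26456702, minus strand) rose more in microglia. Apart from Ifit3, these genes were chosen after their values were seen.
Ifit1: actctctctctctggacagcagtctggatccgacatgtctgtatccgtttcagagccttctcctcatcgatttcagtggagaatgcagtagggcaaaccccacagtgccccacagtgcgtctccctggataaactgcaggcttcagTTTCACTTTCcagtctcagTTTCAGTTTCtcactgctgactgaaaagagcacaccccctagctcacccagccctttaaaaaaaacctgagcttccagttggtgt
Bst2: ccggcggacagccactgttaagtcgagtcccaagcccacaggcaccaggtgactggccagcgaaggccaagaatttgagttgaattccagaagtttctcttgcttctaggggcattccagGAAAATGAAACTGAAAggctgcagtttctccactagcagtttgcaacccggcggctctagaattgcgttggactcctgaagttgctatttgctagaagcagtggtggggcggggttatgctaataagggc
Ifit3: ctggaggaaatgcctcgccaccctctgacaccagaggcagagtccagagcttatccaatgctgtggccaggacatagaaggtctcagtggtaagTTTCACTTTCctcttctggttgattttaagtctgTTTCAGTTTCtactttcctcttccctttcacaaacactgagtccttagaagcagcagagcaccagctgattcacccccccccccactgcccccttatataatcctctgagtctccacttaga
Rsad2: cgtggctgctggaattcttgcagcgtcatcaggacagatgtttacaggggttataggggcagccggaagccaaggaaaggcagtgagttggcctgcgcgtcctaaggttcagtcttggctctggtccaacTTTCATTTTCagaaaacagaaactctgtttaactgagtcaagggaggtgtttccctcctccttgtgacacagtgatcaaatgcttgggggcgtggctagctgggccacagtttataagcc
Ifit1, Ifit3 and Bst2 each held 2 matches, which overlap in Bst2, and Rsad2 held 1. In windows of 300 bases (250 before to 50 after the start), the motif was found in 12 of 41 shared genes that rose and have a window in the table (29.3%), against 3.66% of all genes tested and 3.99% of all genes of the table. The share was 58.8% (10 of 17) among the interferon-stimulated effectors, 8.77% among microglia-specific genes that rose and 3.6% among astrocyte-specific genes that rose. A match is a description of the letters, not of a bound site.

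Usp18 shows the shared response in each pool. In astrocytes the WT pools read 7.05, 7.08, 7.17, 7.41 and 7.92, and the R6/2 pools 10.36 to 10.99 with a median of 10.53. In microglia the WT pools read 7.88, 8.02, 8.25, 8.37 and 8.5, and the R6/2 pools 11.12 to 11.58 with a median of 11.30. Every R6/2 pool lay above every WT pool in both fractions. The effects were 3.25 ± 0.17 (SE, 6 against 5 pools) in astrocytes and 3.10 ± 0.13 in microglia, and their difference of 0.16 ± 0.15 had a 95% interval of -0.18 to 0.50 (limma, adjusted p = 0.563). Oasl2 rose by 3.14 and 3.22 with a difference of -0.09 (interval -1.0 to 0.83), Ifi27l2a by 2.99 and 2.88 with a difference of 0.11 (-0.42 to 0.63), and Gm4951, an interferon-inducible GTPase-like gene, by 2.92 and 2.85 with a difference of 0.07 (-0.46 to 0.59). These intervals leave room for differences of up to about 1 log2 unit for Oasl2. The Ifi27l2a, Oasl2 and Gm4951 probe sets belong to gene families with close relatives, whose signals may not be fully separated.

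Other interferon genes rose in both cell types by unequal amounts. Among the 24 effectors, 9 had a difference that favoured microglia (3.85% of all genes were on this side) and 1, Mx2, an interferon-induced GTPase named after its value was seen, favoured astrocytes (1.66 against 1.17, difference 0.50, adjusted p = 0.0251). No effector was called on that side without the replicate block, with a random block, with centred arrays, with the Y-linked covariate, or without R6/2 pool 11, WT pool 18, or WT pools 12 and 20. Ifit3, which belongs to a family of proteins that bind foreign RNA, read 9.89, 10.08, 10.10, 10.16 and 10.19 in WT astrocytes and 10.52 to 11.44 (median 11.01) in R6/2 astrocytes. The microglial signal was 8.69, 8.78, 9.03, 9.06 and 9.47 in WT and 11.66 to 12.09 (median 12.01) in R6/2 pools. The R6/2 and WT pools did not overlap in either fraction. WT microglia lay below WT astrocytes, and R6/2 microglia above R6/2 astrocytes. The effect was 0.91 ± 0.14 in astrocytes and 2.97 ± 0.14 in microglia, a difference of -2.07 ± 0.17 (adjusted p = 7.35e-05).

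Ifit2, of the same family, rose by 0.44 in astrocytes and 3.09 in microglia (difference -2.65 ± 0.20, adjusted p = 4.76e-05), and Oas1a, which makes the oligoadenylates that activate RNase L, by 1.19 and 3.21 (difference -2.01 ± 0.34, adjusted p = 0.00438). Stat2, the signalling factor itself, rose by 0.37 and 1.05 (difference -0.68 ± 0.10, adjusted p = 0.00255). Cmpk2, Rsad2, Xaf1, Mx1 and Rtp4 had differences between -1.86 and -0.73. The calls of the difference held for Ifit2, Ifit3, Oas1a and Stat2 when any single pool was left out, but the small astrocyte effect of Stat2 lost its own call without any of 7 pools (R6/2 pools 11, 13, 15 and 19, WT pools 16, 18 and 20), that of Oas1a without R6/2 pool 19 or WT pool 16, 18 or 20, and that of Ifit2 without R6/2 pool 15. With the oligodendrocyte covariate the astrocyte effect of all 3 of Ifit2, Oas1a and Stat2 was not called. With WT pools 12 and 20 left out, 4 of the 24 effectors had a difference that favoured microglia.

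Some interferon genes passed the test only in microglia. Ifi44l rose by 5.09 ± 0.49 in microglia, the largest microglial effect among the genes named by rule, while its astrocyte effect was 0.42 ± 0.33 at a level under the signal minimum there. Zbp1, a sensor of Z-form nucleic acids, rose by 2.26 in microglia (0.28 in astrocytes, also under the minimum), and Oas2 by 2.33 (0.19 in astrocytes, measurable there). For Ifi44l and Zbp1 the data give a microglial rise and no readable astrocyte effect. For Oas2 the difference was -2.14 ± 0.38 (adjusted p = 0.00622), and it was not called without WT pools 12 and 20 (-2.05, adjusted p = 0.0546).

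The signalling and sensor genes upstream showed smaller gaps. Of 14 tested, 6 rose in astrocytes (10% of all genes rose there) and 7 in microglia (1.38%). Of the 14, 6 were shared (0.64% of all genes) and 2 (Stat2 and Zbp1) differed (10.4%). With the oligodendrocyte covariate 2 rose in astrocytes and 2 were shared, and Ddx58 and Ifih1 were then not called in astrocytes. Irf7, the factor that amplifies interferon production, rose by 2.19 in astrocytes and 2.49 in microglia, and Irf9, a DNA-binding partner of STAT2, by 1.44 and 0.88. The RNA sensors Ddx58 and Ifih1 rose by 1.21 and 1.41 in astrocytes and by 0.47 and 0.79 in microglia. Their differences, 0.75 (interval 0.25 to 1.24) and 0.62 (0.07 to 1.16), were not called (adjusted p = 0.0603 and 0.14). The difference of Ddx58 was called with WT pool 14 left out, with a random block (adjusted p = 0.0302) and with the mean of its probe sets (0.84, adjusted p = 0.0105).

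Of 11 genes of class I antigen presentation tested, 6 rose in astrocytes (10% of all genes rose there) and 2 in microglia (1.38%). Their median effects were 0.44 and 0.09. With the oligodendrocyte covariate 1 rose in astrocytes (median 0.18) and 0 were shared. Nlrc5, the transactivator of class I genes, rose by 2.05 and 2.00, and H2-D1, a classical class I heavy chain, by 1.01 and 0.51. The difference was called for Tapbp, which loads peptides onto class I molecules (0.41 in astrocytes, -0.08 in microglia, difference 0.49 ± 0.09, adjusted p = 0.00754), and for Psmb8, a subunit of the immunoproteasome (1.24 and 0.16, difference 1.07 ± 0.29, adjusted p = 0.0364). The call of Psmb8 was lost without R6/2 pool 17, 19 or 21 or WT pool 12, 16, 18 or 20. Over all fits with 1 pool left out, its difference ran from 0.89 to 1.29. Neither was called without both WT pools 12 and 20, nor with the mean of each gene's probe sets (Tapbp 0.27, adjusted p = 0.089, and Psmb8 0.54, adjusted p = 0.0647). H2-D1 and its relatives share sequence, so its signal is uncertain.

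Genes that fell in both cell types were led by Hpca and Scn4b, both genes of striatal neurons. Among the 67 shared genes with no difference called, 39 rose and 28 fell. Hpca, a neuronal calcium sensor, read 6.25, 6.54, 6.84, 7.15 and 7.46 in WT astrocytes and 3.35 to 6.6 (median 5.26) in R6/2 astrocytes. In microglia it read 6.19, 6.58, 7.45, 7.46 and 7.70 in WT and 4.5 to 5.48 (median 4.90) in R6/2 pools. The groups overlapped in astrocytes, through R6/2 pool 21, and did not in microglia. The effects were -1.70 ± 0.45 and -2.13 ± 0.27, with a difference of 0.44 (interval -0.79 to 1.66). Scn4b, a sodium channel subunit enriched in medium spiny neurons, had effects of -1.31 and -1.18. Beside these genes stands the mean of the medium spiny neuron genes given above, which was lower in every R6/2 than in every WT microglia pool. Scn4b is a member of that mean and Hpca is not, so the mean is no separate observation for Scn4b. In a bulk fraction fewer cells of a type and less RNA per cell cannot be told apart. The shared call was lost for Hpca without WT pool 18 or 20, and for Scn4b without R6/2 pool 11, 13, 17 or 21 or WT pool 12, 16, 18 or 20. Rnase10 had effects of -1.08 and -0.90 (under the signal minimum in astrocytes, and its shared call lost without WT pool 12, 18 or 20), and Fads6, a fatty acid desaturase, fell by 0.88 in astrocytes and by 0.97 in microglia.

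**Figure D2:**
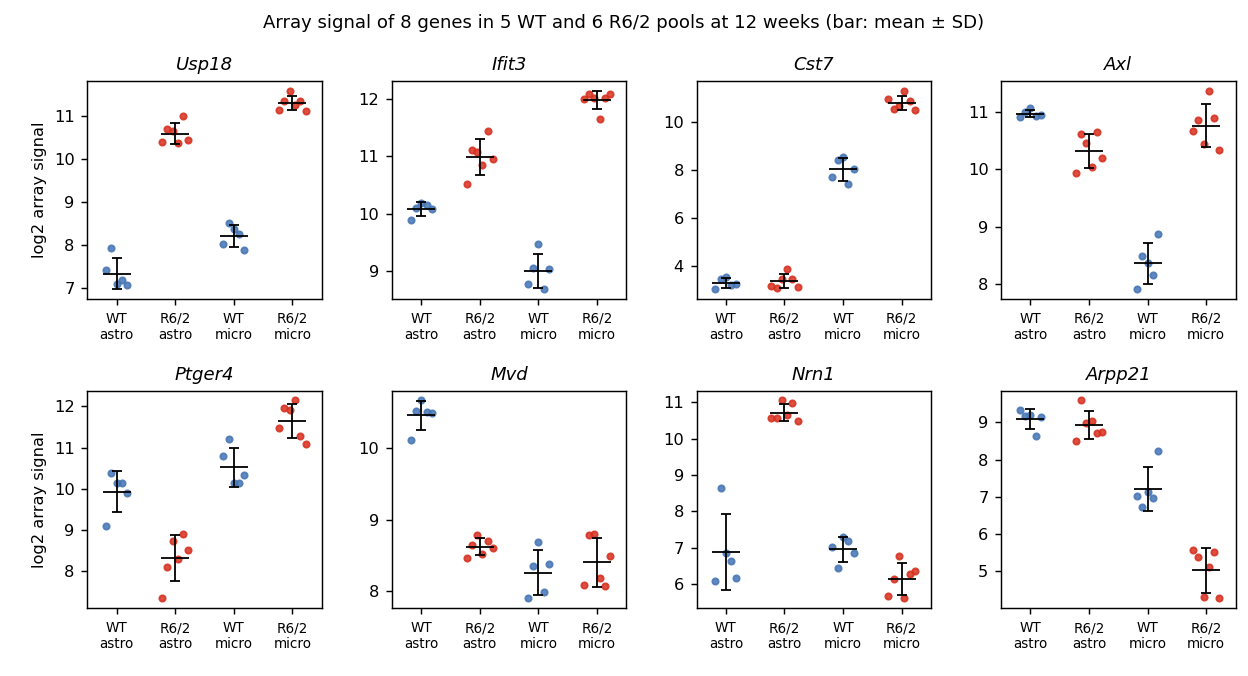
Log2 array signal of 8 genes in each pool at 12 weeks (points), with the mean and SD of the 5 WT (blue) and 6 R6/2 (red) pools of each fraction (bars). Usp18 rose in both cell types, Ifit3 rose more in microglia, Cst7 rose in microglia, Axl and Ptger4 fell in astrocytes and rose in microglia, Mvd fell and Nrn1 rose in astrocytes, and Arpp21 fell in microglia.

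The 16 genes that moved in opposite directions comprised 9 that fell in astrocytes and rose in microglia, and 7 that rose in astrocytes and fell in microglia. All were measurable in both fractions. The most marked was Axl, a receptor tyrosine kinase through which glia recognise dying cells. It read 10.92, 10.92, 10.95, 10.995 and 11.08 in WT astrocytes and 9.94 to 10.66 (median 10.33) in R6/2 astrocytes. The microglial signal was 7.91, 8.16, 8.36, 8.49 and 8.88 in WT and 10.34 to 11.37 (median 10.77) in R6/2 pools. The groups did not overlap in either fraction, so that WT microglia lay well under WT astrocytes, whereas every R6/2 microglia pool overlapped or exceeded the range of R6/2 astrocytes. The effects were -0.66 ± 0.13 in astrocytes and 2.41 ± 0.20 in microglia, a difference of -3.06 ± 0.25 (adjusted p = 6.86e-05), and the class of Axl held without any single pool. With the mean of its probe sets the difference was -1.63 (adjusted p = 0.000171). Gas6 and Pros1, the ligands of Axl and its relatives, had effects of 0.13 and 0.29 in astrocytes and -0.48 and -0.07 in microglia. Neither effect was called for either ligand, but the differences of 0.61 ± 0.12 (adjusted p = 0.00954) and 0.35 ± 0.10 (adjusted p = 0.0419) were. With the mean of its probe sets the difference of Gas6 was 0.10 (adjusted p = 0.772). The call of Pros1 was lost without any of 9 pools (R6/2 pools 13, 15, 17, 19 and 21, WT pools 12, 16, 18 and 20). Over all fits with 1 pool left out, its difference ran from 0.29 to 0.40.

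Ptger4, a receptor for prostaglandin E2, read 9.11, 9.91, 10.14, 10.14 and 10.38 in WT astrocytes and 7.34 to 8.90 (median 8.41) in R6/2 astrocytes. In microglia it read 10.13, 10.15, 10.33, 10.79 and 11.22 in WT and 11.09 to 12.15 (median 11.70) in R6/2 pools. The groups did not overlap in astrocytes and overlapped in microglia through WT pool 14. The effects were -1.62 ± 0.29 and 1.12 ± 0.24 (difference -2.74 ± 0.40, adjusted p = 0.00195). BC064078, an uncharacterised transcript, had effects of -0.87 and 0.99 (difference -1.86 ± 0.23, adjusted p = 0.000843), and Pcp4, a calmodulin regulator, of -1.33 and 0.69 (difference -2.02 ± 0.33, adjusted p = 0.0037).

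In the other direction, Bend6 rose by 0.67 in astrocytes and fell by 0.69 in microglia, Helz, an RNA helicase, had effects of 0.52 and -0.58, and Traf6, the ubiquitin ligase that relays Toll-like receptor signals, of 0.52 and -0.49. The differences were 1.36 ± 0.22, 1.11 ± 0.16 and 1.01 ± 0.11 (adjusted p = 0.004, 0.00188 and 0.000481). When probe sets were averaged, the difference of Traf6 was 0.40 and not called (adjusted p = 0.0862), and Bend6 and Helz were called in astrocytes only. Outside the naming rule, and picked after their values were seen, Rab7b, a GTPase of late endosomes, and Slc2a6, a sugar transporter, had effects of -0.64 and -0.44 in astrocytes and 2.15 and 1.71 in microglia. The differences of these genes were called without any single pool for all 6 genes chosen by the rule, but the opposite class needs 3 calls at a time. It held in all 11 fits with a pool left out for BC064078, in 5 for Helz, 4 for Bend6, 3 for Ptger4 and 2 each for Pcp4 and Traf6. The count of opposite genes itself ran from 4 (without WT pool 18) to 14, and fell by more than 1.5 times without R6/2 pool 11, 13 or 15 (7, 9 and 8 genes) or WT pool 12, 16 or 20 (8, 10 and 6 genes).

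Microglia-specific genes (78 higher and 47 lower in R6/2) included many of the disease-associated state. Of 17 such genes tested, 9 rose in microglia (1.38% of all genes rose there). In astrocytes 0 rose (10% of all genes) and 1, Axl, fell (9.89%). Of the 17, 10 were measurable in both fractions, and in a fit of such genes only 5 of the 10 rose in microglia and 4 differed (Apoe, Axl, Gpnmb and Lpl), all lower in astrocytes. The other 4 genes called as different were dim in astrocytes, so they entered the test through microglia. Cst7, an inhibitor of lysosomal cathepsins, read 7.39, 7.68, 8.02, 8.40 and 8.54 in WT microglia and 10.48 to 11.27 (median 10.75) in R6/2 microglia, with no overlap. In astrocytes it was under the signal minimum, at 3.03, 3.20, 3.25, 3.46 and 3.52 in WT and 3.09 to 3.85 (median 3.30) in R6/2 pools. The microglial effect was 2.77 ± 0.22, and an astrocyte effect could not be read. Clec7a (a receptor for fungal glucans), Igf1 (insulin-like growth factor) and Itgax (an integrin) rose by 1.84, 1.98 and 1.25 in microglia and were likewise too dim in astrocytes for their effects there to be read.

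Apoe, the main lipid carrier of the brain, was bright in both fractions. It read 10.65, 10.91, 11.50, 11.52 and 11.62 in WT microglia and 12.46 to 12.78 (median 12.74) in R6/2 microglia, without overlap. In astrocytes it read 13.31, 13.43, 13.44, 13.44 and 13.59 in WT and 13.13 to 13.55 (median 13.29) in R6/2 pools, which overlapped. The effects were 1.44 ± 0.17 in microglia and -0.14 ± 0.09 in astrocytes (difference -1.58 ± 0.17, adjusted p = 0.000367). Its neighbour Apoc1, another apolipoprotein, rose by 3.02 ± 0.23 in microglia with an astrocyte effect of 0.00 ± 0.17 (difference -3.02 ± 0.26, adjusted p = 9.62e-05). Gpnmb, a glycoprotein of phagocytes, rose by 2.07 in microglia (-0.11 in astrocytes, difference -2.18 ± 0.48, adjusted p = 0.0164, and not called without WT pools 12 and 20, adjusted p = 0.0571). St8sia1, which makes the ganglioside GD3, rose by 2.21 (-0.34 in astrocytes, difference -2.54 ± 0.48, adjusted p = 0.00824).

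Lpl, the lipase that frees fatty acids from lipoproteins, rose by 2.07 in microglia, with -0.61 ± 0.58 in astrocytes. Its difference was -2.68 ± 0.70 (limma, adjusted p = 0.0326). That call was lost without R6/2 pool 11, 13, 15 or 17 or WT pool 12, 14, 18 or 20. Over all fits with 1 pool left out, the difference ran from -3.12 to -2.37. The list was not uniform. Trem2, the lipid receptor that drives this state, had effects of -0.22 and -0.09 and was not called in either cell type, and neither were Tyrobp and the cathepsins B, D and Z. Of 19 homeostatic microglial markers, 0 changed in microglia. Cxcl1, a chemokine for neutrophils, rose by 2.27 in microglia, with an astrocyte level under the minimum.

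Microglia-specific falls included genes of neurons. Arpp21, a regulator of calmodulin signalling in medium spiny neurons, read 6.73, 6.96, 7.02, 7.13 and 8.23 in WT microglia and 4.27 to 5.58 (median 5.25) in R6/2 microglia, without overlap. In astrocytes it read 8.63, 9.13, 9.18, 9.21 and 9.32 in WT and 8.51 to 9.59 (median 8.86) in R6/2 pools, which overlapped. The effects were -2.19 ± 0.32 and -0.16 ± 0.19 (difference 2.03 ± 0.36, adjusted p = 0.00653). With the mean of the Arpp21 probe sets the difference was 0.51 and not called (adjusted p = 0.217). Pnma2, a neuronal gene, and Akap17b had effects of -1.50 and -1.06 in microglia and 0.17 and 0.45 in astrocytes. The microglial call of Pnma2 was lost without R6/2 pool 11 or 13 or WT pool 18, and that of Akap17b without R6/2 pool 13, 19 or 21 or WT pool 14 or 20. The differences of Pnma2 and Akap17b, 1.67 and 1.51, were not called without WT pools 12 and 20 (adjusted p = 0.0571 and 0.0658), and that of Akap17b was 0.97 with the mean of its probe sets. Ccdc162 had an effect of -1.49 in microglia and was under the minimum in astrocytes. The medium spiny neuron mean, of which Arpp21 is itself a member, was lower in all R6/2 microglia pools, as given above. When that mean was added to the fit of each fraction, a choice made after the data were seen, 28 shared, 44 microglia-specific and 0 opposite genes were called, but since the mean itself separates the genotypes in microglia, this fit also removes part of the genotype effect.

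Astrocyte-specific genes were the largest class (554 higher and 335 lower in R6/2), and cholesterol synthesis was prominent among those that fell. Of 17 enzymes of the pathway tested, all measurable in both fractions, 15 fell in astrocytes (9.89% of all genes fell there), 0 rose or fell in microglia, and 12 differed between cell types, all lower in astrocytes (3.85% of all genes). The median effect was -0.96 in astrocytes and -0.12 in microglia. Mvd, which makes isopentenyl diphosphate, read 10.11, 10.48, 10.50, 10.52 and 10.66 in WT astrocytes and 8.46 to 8.79 (median 8.63) in R6/2 astrocytes, a wide gap. The microglial signal was 7.90, 7.99, 8.35, 8.39 and 8.69 in WT and 8.08 to 8.80 (median 8.34) in R6/2 pools, which overlapped throughout. The effects were -1.83 ± 0.10 and 0.14 ± 0.19 (difference -1.97 ± 0.15, adjusted p = 4.76e-05).

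Idi1, the next enzyme, had effects of -1.45 and 0.01 (difference -1.46 ± 0.16, adjusted p = 0.000465). Fdft1, which commits the pathway to squalene, had effects of -1.20 and 0.05 (difference -1.26 ± 0.13, adjusted p = 0.000273), and Cyp51, which removes a methyl group from lanosterol, of -1.33 and -0.26 (difference -1.07 ± 0.15, adjusted p = 0.0015). The calls of these 4 enzymes held without any single pool, and when its probe sets were averaged the difference of Fdft1 was -0.72 (adjusted p = 0.00104). Hmgcs1, at the head of the pathway, had effects of -0.30 and -0.15 and was not shown to differ. The oligodendrocyte marker mean was also lower in R6/2 astrocyte pools, and with that mean as a covariate 12 enzymes fell in astrocytes and 11 differed. Without WT pools 12 and 20, 14 fell and 6 differed. The sterol regulatory element TCACNCCAC was found in the windows of 8 of 257 astrocyte-specific genes that fell (3.11%), 1.37% of all genes tested, and 1 of 14 enzymes with a window, Hmgcs1.

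The regulators of sterols moved less. Of 17 genes for sterol sensing, uptake and efflux, 4 fell in astrocytes (9.89% of all genes fell there). The effects differed for 4 (10.4% of all genes), a count of 1 without WT pools 12 and 20 and with each of the Y-linked, endothelial and oligodendrocyte covariates. Apart from Apoe these were Insig1, which retains the SREBP complex in the endoplasmic reticulum (-0.41 in astrocytes, 0.31 in microglia), Stard4, which carries sterols between membranes (-0.85 and -0.15), and Fasn, the fatty acid synthase (-0.47 and 0.13). Their differences of -0.72, -0.70 and -0.59 were not firm. The call of Insig1 was lost without R6/2 pool 11, 13, 15 or 21 or WT pool 16, 18 or 20. That of Stard4 was lost without R6/2 pool 13 or WT pool 12 or 18, and that of Fasn without any pool but WT pool 16. Over all fits with 1 pool left out, the differences ran from -0.83 to -0.64 for Insig1, -0.78 to -0.58 for Stard4 and -0.73 to -0.50 for Fasn. Srebf2, which encodes SREBP2, had effects of -0.27 and -0.22 and was not shown to differ.

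The astrocyte-specific rises were led by Nrn1, Kazald1 and Cers6 among genes measurable in both fractions. The class compares astrocytes with microglia only, and Nrn1 and Kazald1 also rose in cells that carried neither sort marker, as given below. Nrn1, which encodes neuritin, an extracellular protein that promotes neurite growth, read 6.09, 6.16, 6.63, 6.87 and 8.65 in WT astrocytes and 10.47 to 11.05 (median 10.62) in R6/2 astrocytes. In microglia it read 6.43, 6.84, 7.03, 7.17 and 7.29 in WT and 5.6 to 6.76 (median 6.20) in R6/2 pools. The astrocyte groups were far apart, while the microglia groups overlapped. The effects were 3.84 ± 0.39 and -0.82 ± 0.22 (difference 4.66 ± 0.49, adjusted p = 0.000327). Without R6/2 pool 15 or WT pool 14 the microglial effect was called too, and Nrn1 then counted as opposite. Kazald1, a secreted protein that binds insulin-like growth factors, rose by 3.45 ± 0.13 (0.23 ± 0.18 in microglia, difference 3.21 ± 0.22, adjusted p = 2.94e-05), and Cers6, a ceramide synthase, by 2.53 ± 0.29 (-0.19 ± 0.13 in microglia, difference 2.72 ± 0.30, adjusted p = 0.000447). Snhg11, a long non-coding RNA, rose by 4.47 in astrocytes and was under the minimum in microglia.

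Some regulators of development and of the cell cycle also rose in astrocytes. The neuronal transcription factors Pou4f1 and Onecut2 rose by 2.79 and 2.48 in astrocytes. They were under the minimum in microglia, so an effect there could not be read. Of 11 homeobox regulators tested, 2 of them measurable in both fractions, 3 rose in astrocytes (10% of all genes rose there) and 0 in microglia. The others were dim in 1 fraction, so these counts do not show specificity to astrocytes. Of 13 p53 targets tested, 2 rose and 1 fell in astrocytes, a share near that of all genes. The 2 that rose, Cdkn1a, an inhibitor of the cell cycle, and Eda2r, a receptor of the tumour necrosis factor family, did so by 1.71 and 2.21 and had effects of 0.42 and 0.21 in microglia, where Eda2r was dim. The difference of Cdkn1a (adjusted p = 0.0118) was not called without WT pools 12 and 20 (adjusted p = 0.0881). Of 12 proliferation genes tested, 1 rose in astrocytes, a share near that of all genes, and 1 differed. That gene, Mcm5, a subunit of the replicative helicase, rose by 1.35 (-0.21 in microglia, difference 1.56 ± 0.18, adjusted p = 0.000479). The neuronal ubiquitin hydrolase Uchl1 rose by 2.65 (0.61 in microglia, difference 2.04 ± 0.25, limma, adjusted p = 0.000853). It belongs to 11 pan-neuronal markers tested, of which 2 rose and 1 fell in astrocytes, with a median effect of -0.01. The mean of 15 pan-neuronal markers was 7.10 to 7.81 in R6/2 and 6.995 to 7.24 in WT astrocyte pools, so that fraction held some neuronal RNA. Cd109, a surface protein that restrains TGF-beta signalling, rose by 3.06 and was dim in microglia.

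Astrocyte-specific falls among genes of other kinds included Gem, a small GTPase (-1.75, 0.52 in microglia), and Tnfaip2 (-1.59, 0.57). Further such genes were Kcnk13, a potassium channel (-2.35, -0.26), and BE949265 (-2.85, dim in microglia). The differences of the first 3 were -2.27 ± 0.39, -2.16 ± 0.37 and -2.10 ± 0.32, and that of Kcnk13 was -1.26 with the mean of its probe sets. Vegfa, the growth factor of blood vessels, fell by 0.83 in astrocytes, with WT pools at 10.71, 10.73, 10.78, 10.79 and 11.17 and R6/2 pools at 9.55 to 10.31 (median 10.02). In microglia its effect was 1.05 ± 0.31 and not called, from WT pools at 5.31, 5.36, 5.39, 5.56 and 5.91 to R6/2 pools at 5.72 to 7.65 (median 6.49). These WT microglia values lay under or near the signal minimum of that fraction (5.411). The astrocyte groups did not overlap and the microglia groups did. The difference was -1.89 ± 0.34 (adjusted p = 0.00667), not called without WT pools 12 and 20 (adjusted p = 0.0514). Sdf2l1, a chaperone cofactor of the endoplasmic reticulum, fell by 1.73 in astrocytes (-0.17 in microglia, difference -1.56 ± 0.20, adjusted p = 0.00103).

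Circadian clock genes shifted between the cell types. Of 19 tested, 8 fell in astrocytes (9.89% of all genes) and 2 rose in microglia (1.38%), and 6 differed, all lower in astrocytes (3.85%), with median effects of -0.19 and 0.29. Nr1d1, the repressor REV-ERB alpha, read 10.79, 10.94, 11.08, 11.10 and 11.18 in WT astrocytes and 9.53 to 10.21 (median 9.98) in R6/2 astrocytes. The microglial signal was 8.44, 9.02, 9.10, 9.75 and 10.23 in WT and 9.28 to 10.57 (median 9.77) in R6/2 pools. The groups were apart in astrocytes and overlapped in microglia. The effects were -1.08 ± 0.14 and 0.54 ± 0.31 (difference -1.62 ± 0.30, adjusted p = 0.00747, and 0.0656 without WT pools 12 and 20). Dbp, an output factor of the clock, had effects of -0.76 and 0.23, and Per3, a period protein, of -0.01 and 0.78 (differences -0.99 ± 0.18 and -0.79 ± 0.11, adjusted p = 0.00643 and 0.00165). Arntl, the core activator of the clock, was shared with no difference called, at -0.61 and -0.66. Bhlhe40, a clock repressor, differed by -1.26 ± 0.31 (limma, adjusted p = 0.0259), a call lost without R6/2 pool 11 or 15 or WT pool 12 or 18. Over all fits with 1 pool left out, its difference ran from -1.45 to -1.03. Tef and Cry2, which like Arntl were named after their values were seen, differed by -0.40 and -0.64 with neither effect called. The count of 6 became 4 without R6/2 pool 11 or 15 or WT pool 12 or 18 and with the oligodendrocyte covariate, 3 with the mean Y-linked signal as covariate and 2 without WT pools 12 and 20. The 8 that fell became 5 when probe sets were averaged and 4 without those pools, and the 2 that rose became 1 without any of 8 single pools.

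**Figure D3:**
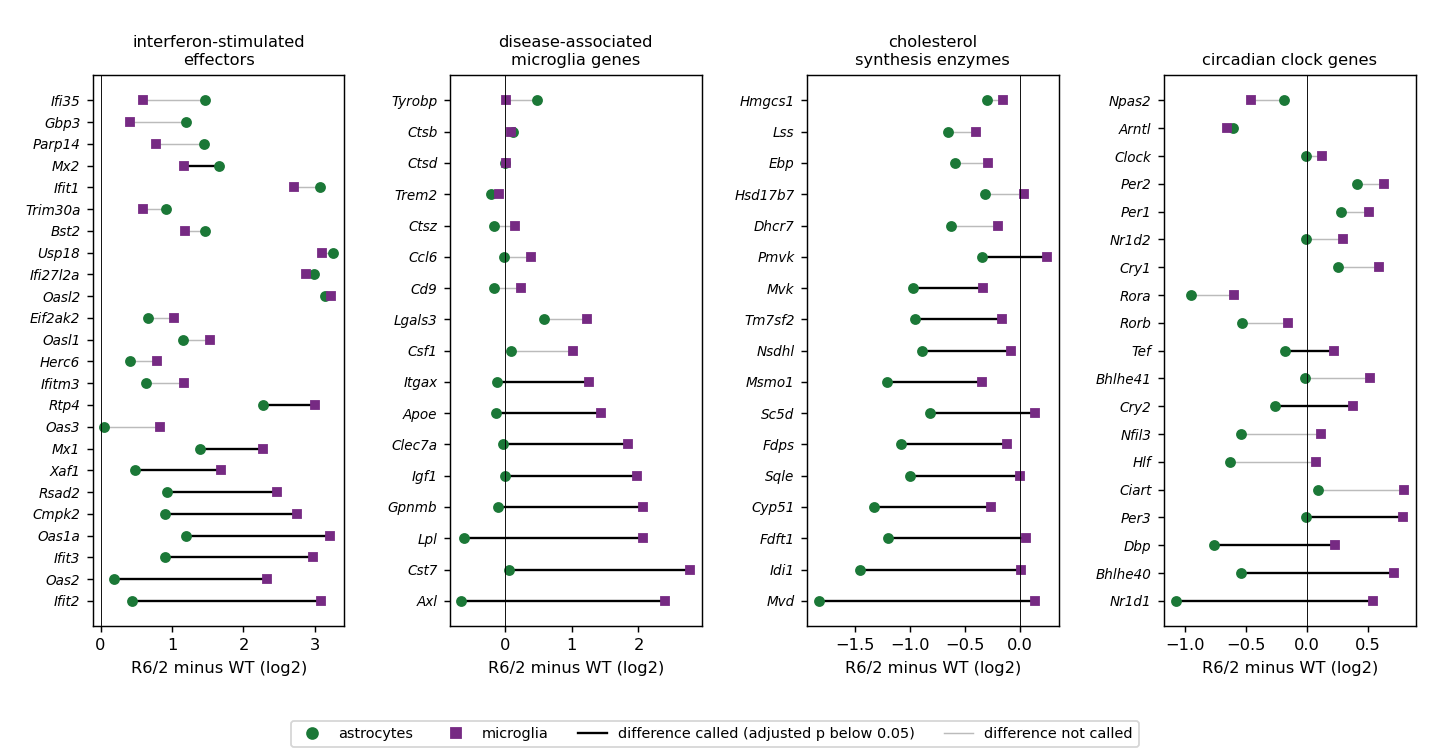
R6/2 minus WT difference (log2) of each tested member of 4 gene lists in astrocytes (green circles) and microglia (purple squares), ordered by the difference between them. Black lines join members whose effects differed (adjusted p below 0.05), which are 10 of 24 interferon-stimulated effectors, 8 of 17 disease-associated microglia genes (4 of the 8 dim in astrocytes), 12 of 17 cholesterol enzymes and 6 of 19 clock genes.

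Several functions showed few or no differences between the cell types. For 24 genes of oxidative phosphorylation, 11 complement genes, 20 astrocyte markers, 13 oligodendrocyte markers and 17 endothelial and mural markers, the difference was called for 0 genes, with 3, 2, 0, 0 and 0 at an unadjusted p below 0.05 (limma). Their median differences were -0.01, -0.02, -0.15, -0.53 and -0.68. Within astrocytes, however, 5 of the 13 oligodendrocyte and 3 of the 20 astrocyte markers fell (9.89% of all genes fell there). The oligodendrocyte mean ran from 6.50 to 8.78 in R6/2 and from 6.59 to 8.98 in WT microglia pools, a wide spread that limits the test of their difference. The endothelial and mural mean ran from 7.59 to 10.38 in R6/2 and from 8.73 to 10.01 in WT astrocyte pools, so it varied widely within a genotype. Of 17 genes for handling glutamate, GABA and potassium, 1 differed, the potassium channel Kcnj10 (-0.26 in astrocytes, 0.63 in microglia, difference -0.88 ± 0.24). That call was lost without R6/2 pool 11, 13, 15 or 21 or WT pool 12, 18 or 20. Over all fits with 1 pool left out, the difference of Kcnj10 ran from -1.03 to -0.73. Of 25 reactive astrocyte genes 3 differed, a share near the 10.4% of all genes tested. Gfap, their best-known member, had effects of -0.20 in astrocytes and 0.27 in microglia, neither called. Fkbp5, a glucocorticoid-induced chaperone on that list, was shared (1.71 and 0.86, difference 0.85, interval 0.13 to 1.58, adjusted p = 0.128). Without WT pool 14 its difference was 1.18 and called (adjusted p = 0.012).

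The cells that carried neither sort marker gave a further reference at 12 weeks, although they come from the same pools (6 R6/2 and 5 WT arrays, 2063 genes called, 15.4%). Usp18 and Ifit3 rose there too, by 1.09 and 1.70, and so did Nrn1 and Kazald1, by 4.41 and 2.77. Axl fell by 0.79 there, as in astrocytes, while Apoe and Apoc1 rose by 1.17 and 2.07, as in microglia. Mvd and Idi1 had effects of 0.25 and -0.13, neither called. Arpp21 rose by 3.17, in contrast to its fall in microglia. Of the 889 astrocyte-specific genes 661 had the sign of the astrocyte effect in these cells, and 212 were called there with that sign, which is 74.4% and 23.8%, against 58.9% and 10.3% of all genes tested.

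The same difference between cell types was measured at 6 weeks in R6/2 (20 arrays) and at 12 months in zQ175 knock-in mice, whose endogenous Htt was given an expanded repeat (16 arrays). It was called for 38 genes (0.283%) and 31 genes (0.231%). Of the 889 astrocyte-specific genes, 767 had the 12-week sign of the difference at 6 weeks and 656 in zQ175. These are 86.3% and 73.8%, against 65.5% and 60.1% of all genes tested. For the 125 microglia-specific genes these counts were 103 and 92, and for the 16 opposite genes 14 and 16. Among the 67 shared genes with no difference called, both effects kept their signs for 66 at 6 weeks and for 40 in zQ175, 98.5% and 59.7% against 46.3% and 34.5% of all genes.

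The interferon differences were present early. Ifit3 and Ifit2 differed at 6 weeks by -1.91 and -2.05 (adjusted p = 0.00177 and 0.00349), close to the 12-week values, but by -0.74 and -0.43 in zQ175 (adjusted p = 0.196 and 0.191). Tests of the change itself called 36 genes between 12 and 6 weeks (0.268%) and 109 between R6/2 at 12 weeks and zQ175 (0.812%). Ifit2, Ifit3, Oas2, Stat2 and Ifi44l were among the latter. Cst7, Apoc1, Axl, Igf1, Apoe and Cxcl1 differed between the ages, with 6-week differences of 0.09, -0.13, -0.89, 0.23, -0.50 and -0.01, though Cst7, Igf1 and Cxcl1 were dim in astrocytes. In zQ175 the difference was called for Axl (-1.74), Apoc1 (-2.36), Igf1 (-2.11), Apoe (-1.17), Gpnmb (-3.18), St8sia1 (-2.12) and Ptger4 (-2.06), as in R6/2, all with adjusted p between 0.0181 and 0.0452. Mvd differed by -0.83 at 6 weeks and -0.27 in zQ175, and the zQ175 value was lower in size than the R6/2 value at 12 weeks by the test of the change (-1.70). Kazald1, Cers6 and Nrn1 had values of -0.36, -0.82 and 0.52 in zQ175, and each differed from R6/2 at 12 weeks.

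**Figure D4:**
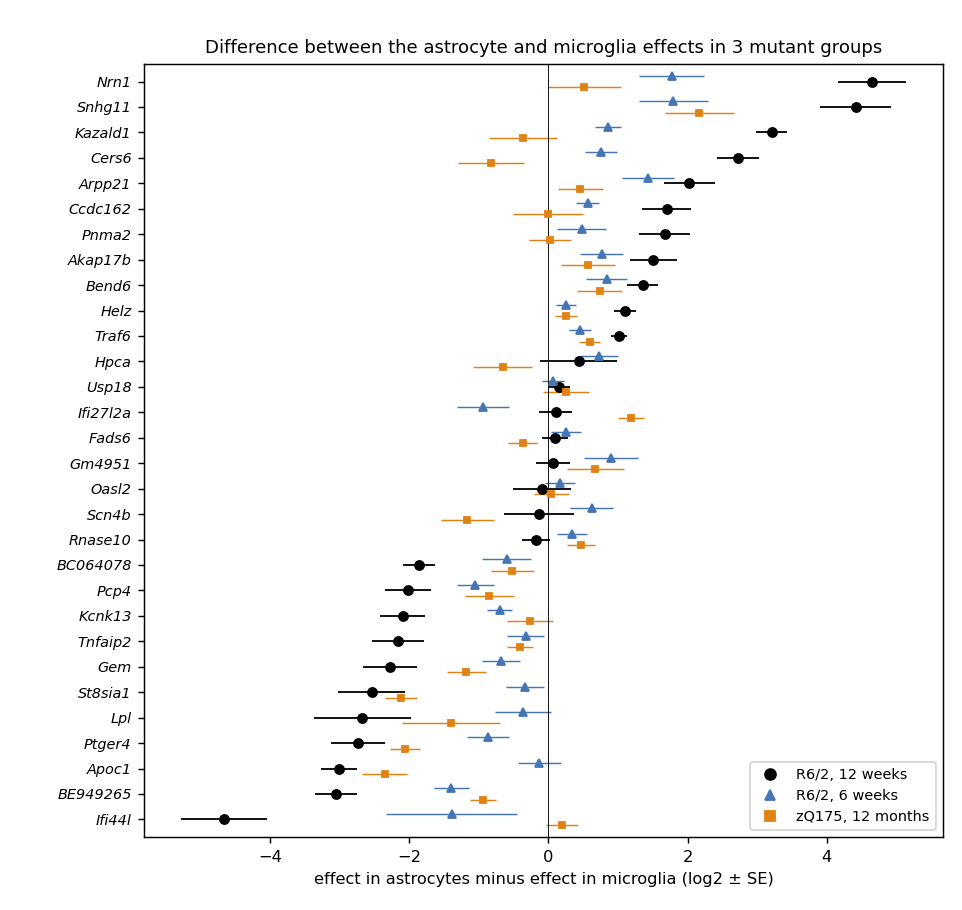
Astrocyte effect minus microglia effect (log2, ± SE) for the genes named from the classes, in R6/2 at 12 weeks (circles), R6/2 at 6 weeks (triangles) and zQ175 at 12 months (squares). Nrn1, at 4.66 in R6/2 at 12 weeks, stood at 1.77 at 6 weeks and 0.52 in zQ175, whereas Ptger4, at -2.74, stood at -0.87 and -2.06.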

How the data were processed

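Signal was measured on Affymetrix mouse arrays. The deposited values are log2 signals for 45101 probe sets, which the authors obtained with affy and RMA per the submitters' processing notes (versions not given in the sources used). Of the probe sets, 34958 carried 1 gene symbol, 932 several and 9211 none, and a gene was read from its single-symbol probe set with the highest mean over all arrays. Genes were tested if their group mean passed the 40th percentile of a fraction. The difference between cell types was fitted with limma 3.58.1 (R 4.3.3) on the astrocyte-minus-microglia difference of each replicate number, and each fraction was also fitted alone, with eBayes and Benjamini-Hochberg adjustment. Classes combine the 3 tests.

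Each sample is a pool of mice, so p-values measure the spread between pools, and the number of arrays limits the precision. The 12-week array medians ran from 6.268 to 6.579, and correlations within groups from 0.974 to 0.993. Genes were named by a rule on effect size (per class, 3 or 4 in each direction, all R6/2 pools on the called side) and up to 4 per list. The genes and lists were chosen with earlier results of these data known. The fit was tested on simulated data. Alternatives changed the block, probe sets, filter, scaling, covariates, eBayes settings and the pools used.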

Additional observations from a re-analysis of the deposited data

Results flagged for a closer look

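Single samples that stood apart from the rest of their group were sought for 86 genes in 344 groups, and 24 were found, where chance alone gives about 1 in 20 groups. Of these, 4 were in WT microglia pool 20: St8sia1 at 3.97 (next 5.95), Arpp21 at 8.22 (next 7.13), Pdgfra at 6.08 (next 5.04) and Onecut2 at 3.61 (next 3.02). In R6/2 microglia, pool 17 stood apart for Cd44 (10.33, next 9.34), Ifit3 (11.66, next 12.00) and Oas1a (11.30, next 11.62), pool 21 for Kazald1 (5.81), pool 11 for Kcnk13 (8.84) and pool 15 for H2-D1 (12.66). In R6/2 astrocytes, pool 21 stood apart for Pcp4 (8.90, next 7.64), pool 19 for Uchl1 (10.86), pool 17 for Nlrc5 (6.62, next 7.90) and pool 11 for Pros1 (11.50). In WT astrocytes, pool 18 stood apart for Arpp21 (8.63) and Vegfa (11.16), pool 16 for Cspg4 (6.59), pool 12 for Gpnmb (4.96, next 6.33) and Bhlhe40 (10.89), pool 20 for Cd109 (3.99) and pool 14 for Fkbp5 (7.35) and Igfbp2 (11.72). In WT microglia, pool 16 stood apart for Gpnmb (5.73) and Eda2r (4.75).

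The difference between cell types changed with age in R6/2 for 10 of the named genes (12 weeks minus 6 weeks, limma, adjusted p from 1.76e-06 to 0.0416). It was more positive at 12 weeks for Kazald1 (2.35 ± 0.30, SE) and Cers6 (1.97 ± 0.40). It was more negative for Apoc1 (-2.89), Cst7 (-2.80), Cxcl1 (-2.64), Igf1 (-2.20), Axl (-2.17), Apoe (-1.08), Per3 (-1.05) and Fdft1 (-0.93). Cst7, Cxcl1 and Igf1 were dim in astrocytes.

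Between R6/2 at 12 weeks and zQ175 at 12 months the difference changed for 17 named genes (adjusted p from 0.000565 to 0.0491). It was more positive in R6/2 for Nrn1 (4.14 ± 0.77), Cd109 (3.87), Kazald1 (3.58), Cers6 (3.55), Eda2r (2.81), Pou4f1 (2.47), Cdkn1a (2.13), Olfml3 (1.22) and Dnajb1 (1.11). It was more negative in R6/2 for Ifi44l (-4.86 ± 0.80), Oas2 (-2.23), Ifit2 (-2.22), Cst7 (-2.16), BE949265 (-2.12), Mvd (-1.70), Ifit3 (-1.33) and Stat2 (-1.05). Ifi44l and Cst7 were dim in astrocytes, and Cd109, Eda2r, Pou4f1 and BE949265 in microglia. Model and age differ together here and cannot be told apart.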

How the results depend on the processing

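The comparison rests on 11 pools, and many counts depend on which pools enter. With WT pools 12 and 20 left out, 425 genes differed (246 with the astrocyte effect higher, 179 lower), and 43 were shared, 284 astrocyte-specific, 47 microglia-specific and 3 opposite. With the mean Y-linked signal as covariate the counts were 645 (377 and 268), 46, 410, 51 and 4. With the oligodendrocyte mean as a covariate 47 were shared, 425 astrocyte-specific and 10 opposite, in a fit that also removes part of the genotype effect in astrocytes. With arrays centred on their median, 559 had the higher astrocyte effect, and with robust eBayes and a trend 27 were opposite. In alternatives chosen after seeing the data, the medium spiny neuron mean as a covariate gave 838 genes that differed (488 higher), 28 shared, 372 astrocyte-specific, 44 microglia-specific and 0 opposite, and a single fit of 4 groups without the block gave 133 shared, 209 microglia-specific and 32 opposite. Leaving out 1 pool at a time gave 850 (without WT pool 18) to 1399 genes that differed, 536 to 870 higher, 314 to 547 lower, 60 to 87 shared, 538 to 863 astrocyte-specific, 68 (without R6/2 pool 13) to 119 microglia-specific and 4 to 14 opposite genes. Higher calls also fell by more than 1.5 times without WT pool 12 (566) or 20 (574), and astrocyte-specific calls without WT pool 20 (585). Leaving out pools also lowers the number of pools in the fit, and the cause of these changes was not tested. Without the replicate block 1084 genes differed (645 higher, 439 lower), with 86 shared, 764 astrocyte-specific, 122 microglia-specific and 16 opposite, and a random block gave 1727. Deviations of same-numbered samples correlated at 0.047 to 0.332 (6 of 11 over 0.1, 7 highest with their own number), so the pairing rests on the numbers. Without the block the difference was not called for Olfml3, Bcl11b, Fasn, Irx3, Gas6, Pros1 and Igfbp2 (adjusted p = 0.0557 to 0.183). The difference of no named gene reversed while called.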

Other observations

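Other groups of genes were not described above. Of 19 heat shock and unfolded protein genes tested, 3 fell in astrocytes (9.89% of all genes fell there) and 3 in microglia (1.01%). The chaperone genes Hsph1 and Dnajb1 had effects of 0.26 and 0.22 in astrocytes and -0.51 and -0.47 in microglia, and their differences of 0.77 and 0.68 were called (adjusted p = 0.0209 and 0.0109, limma). The call of Hsph1 was lost without WT pool 12. Of 7 markers of oligodendrocyte precursors tested, 2 rose (10% of all genes rose there) and 0 fell in astrocytes. Pdgfra rose by 1.78 there and was dim in microglia. Cspg4 had effects of -0.64 in astrocytes and 0.66 in microglia, neither called, with a difference of -1.30 (adjusted p = 0.0146, limma).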
